A study of Mus musculus with 28 samples.

Results

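The transcripts described here were those of the tight junction, chosen by gene name alone: the claudins *Cldn1*, *Cldn2*, *Cldn3*, *Cldn4*, *Cldn7*, *Cldn12*, *Cldn15* and *Cldn23*, together with *Ocln* and *Tjp1*. Of these 10 genes, 9 were read from the deposited table of 13519 genes, and *Cldn1* was not analysed here. The RNA came from colon organoids, cultures of intestinal epithelium grown in Matrigel, of C57BL/6N mice of 4 genotypes. AC organoids carried VillinCreERT2::APCflox/flox, PAC organoids also Trp53LSL-R172H/+, BAC organoids also BraffloxV600E/+, and BPAC organoids both of these alleles. All groups therefore shared the Apc flox alleles and the Villin-driven CreERT2, which restricts recombination to intestinal epithelium. Each of 14 cultures was split into an arm treated with 4-hydroxytamoxifen (4-HT, 3.5 µM for 24 hours), which activates Cre, and a vehicle arm (EtOH) that carried the same alleles unrecombined, and RNA was isolated 3 days later. The 14 cultures were duplicates 1 and 2 of 7 donor mice, with 2 donors for every genotype but AC, which had 1, and they gave 28 samples. In the genotypes with 2 donors, cultures 1 and 3 were the duplicates of one mouse and cultures 2 and 4 those of the other. Duplicates of 1 mouse are not independent animals, so p-values measure the spread between these cultures, and the AC values rest on a single mouse.

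Claudins are the membrane proteins that form the paracellular strands of the tight junction and set which ions and solutes pass between epithelial cells. In the intestine, claudin-2 and claudin-15 form cation pores and are most abundant toward the crypt, whereas claudin-3, claudin-4, claudin-7 and claudin-23 are typical of the surface epithelium. Occludin is a tetraspan protein of the same strands, and ZO-1, the product of *Tjp1*, is the cytoplasmic scaffold that links the strands to actin.

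The samples held 20577276 to 40068718 counted reads, and no member had fewer than 1255 counts in any sample. Levels are given as CPM (counts divided by the TMM-scaled library total), and an adjusted p under 0.01 in the edgeR fit across all genes is referred to as passing the test. The scaling factors did not overlap between treatments, at 0.885 to 0.970 with EtOH and 1.04 to 1.10 with 4-HT. Scaling by library size alone raised the median 4-HT change of all genes by 0.21 log2 units in BPAC, 0.17 in BAC and 0.22 in both AC and PAC. With that scaling, 1511 genes passed the test as higher and 302 as lower in AC, against 406 and 574 with TMM. The corresponding numbers were 3388 and 737 against 1511 and 1655 in PAC, 3881 and 2066 against 2751 and 2909 in BAC, and 4331 and 2038 against 2979 and 3110 in BPAC. All 8 epithelial markers (*Epcam*, *Cdh1*, *Krt8*, *Krt18*, *Krt19*, *Vil1*, *Cdx2* and *Lgals4*) were present, with a summed level of 17618 to 31432 CPM. With 4-HT, 4 of them passed the test as lower in BPAC, 4 in BAC, 3 in PAC and 1 in AC. In the same order, 45.0%, 41.9%, 23.4% and 7.25% of all genes passed in either direction. Without PAC cultures 1 and 2 the PAC number was 0 (0.355% of all genes). Of 12 fibroblast, immune and endothelial markers, only *Cd3e*, *Cd68* and *Pecam1* were measured, and they summed to 2.41 to 6.50 CPM. *Trp53* averaged 57.9 and 54.3 CPM in PAC and BPAC with EtOH against 112 and 110 CPM in AC and BAC, where the locus carries no stop cassette. *Apc* counts include exons outside the deleted one and were higher with 4-HT in each genotype, and *Braf* counts cannot separate the mutant from the wild-type transcript, so neither gene checks recombination.

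The 4-HT samples of PAC cultures 1 and 2, labelled as different donors, stood apart from the rest. They were the closest pair of the series, with a chi-square of 2.38 per gene against at least 8.53 for every other pair of one group. Both held *Xist* (25.2 and 22.0 CPM) together with Y-linked transcripts (55.0 and 53.5 CPM), whereas every other library had at most 0.291 CPM of one of these. Their EtOH partners differed from each other, with 0.251 CPM of *Xist* and 134 CPM of Y-linked transcripts in culture 1 and 59.9 and 0 CPM in culture 2. The donor labels of both 4-HT libraries are therefore uncertain. PAC values with each culture as a block or with counts summed per donor rely on these labels. The counts of the 4-HT pair differed by more than sampling noise, which does not settle their donors, and they were kept as separate samples. Without these 2 cultures, 48 of 13519 genes (0.355%) passed the test for the 4-HT change in PAC. The members' PAC changes are given with and without them.

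In the GRCm38 build with its GENCODE annotation, *Cldn3* (chr5:134986214-134987472, plus strand) and *Cldn4* (chr5:134945119-134946934, minus strand) are single-exon neighbours with 39279 bases and no protein-coding gene between them. *Cldn12* and *Cldn15* also lie on chromosome 5. *Cldn2* (chrX:139800828-139811386, plus strand) is X-linked, and *Cldn7* (chr11:69964779-69967885, plus strand), *Cldn23* (chr8:35824712-35826559, minus strand), *Ocln* (chr13:100496507-100552718, minus strand) and *Tjp1* (chr7:65296165-65527781, minus strand) lie on other chromosomes. No member shares exon bases with another gene of the table. The 250 bases upstream of the RefSeq transcript start (GRCm38.p6) are shown for *Cldn2*, the crypt-type claudin that rose in BPAC, and for the neighbours *Cldn3* and *Cldn4*, of which the first passed the test in 2 genotypes and the second in 1. The sequences run 5′ to 3′ on the strand of the gene. Capitals mark TCF/LEF words (CTTTG followed by AA, AT, TA or TT) and the AP-1 word TGANTCA, searched on both strands.
Cldn2 (chrX:139800558-139800807, plus strand): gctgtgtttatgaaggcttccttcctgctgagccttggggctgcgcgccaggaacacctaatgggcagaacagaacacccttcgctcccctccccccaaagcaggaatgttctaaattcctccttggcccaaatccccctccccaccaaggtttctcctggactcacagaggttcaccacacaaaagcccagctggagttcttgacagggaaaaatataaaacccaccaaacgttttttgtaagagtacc
Cldn3 (chr5:134985964-134986213, plus strand): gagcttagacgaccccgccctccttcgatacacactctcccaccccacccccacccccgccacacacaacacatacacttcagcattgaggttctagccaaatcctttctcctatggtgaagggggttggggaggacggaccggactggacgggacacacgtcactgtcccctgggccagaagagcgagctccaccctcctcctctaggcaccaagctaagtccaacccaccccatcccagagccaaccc
Cldn4 (chr5:134946935-134947184, minus strand): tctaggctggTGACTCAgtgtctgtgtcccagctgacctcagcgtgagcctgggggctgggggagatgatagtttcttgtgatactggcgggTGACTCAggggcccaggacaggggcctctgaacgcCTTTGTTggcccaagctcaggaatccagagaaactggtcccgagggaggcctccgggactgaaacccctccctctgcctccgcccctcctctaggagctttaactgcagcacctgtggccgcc
The *Cldn4* window held 1 TCF/LEF word, 123 bases before the start, and 2 AP-1 words, 158 and 240 bases before it. The windows of *Cldn2* and *Cldn3* held neither. Of the 13 windows of 9 members, all but *Cldn23*, the only other match to either motif was an AP-1 word of *Cldn15*. Among all 32851 windows, 14.8% held a TCF/LEF word and 6.75% an AP-1 word. The SP/KLF word GGGCGG, present in 32.7% of all windows, was matched for each of these members except *Cldn2*, and the CDX word TTTATNG, present in 9.81%, for none. The 4 motifs share no word. A match is a description of these letters and not a binding site.

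Levels of different genes were compared per kilobase of exon (RPKM, from TMM-scaled CPM). In the 14 EtOH samples *Cldn3* was the most abundant member at 1473 ± 154 RPKM (SD, n = 14), followed by *Cldn7* at 990 ± 88.0 RPKM. *Cldn4* (137 ± 41.8 RPKM), *Cldn15* (104 ± 10.3 RPKM), *Cldn23* (95.5 ± 12.9 RPKM) and *Ocln* (76.4 ± 7.98 RPKM) came next, then *Cldn2* (44.7 ± 7.39 RPKM), *Cldn12* (16.4 ± 2.01 RPKM) and *Tjp1* (14.4 ± 3.60 RPKM). The ranges over samples did not overlap between *Cldn7* and *Cldn4*, between *Ocln* and *Cldn2*, or between *Cldn2* and *Cldn12*. All other neighbours in this order overlapped.

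With 4-HT the order changed in its middle. *Cldn2* stood at 58.4 ± 7.60 RPKM (SD, n = 14), ahead of *Ocln* at 46.2 ± 9.15 RPKM and *Cldn23* at 41.2 ± 11.7 RPKM, although its range overlapped those of both. In bulk RNA, fewer cells of a type and less RNA of a gene per cell cannot be told apart. *Cldn3* (949 ± 219 RPKM) and *Cldn7* (703 ± 56.2 RPKM) still led. As a share of the summed RPKM of the 7 claudins, *Cldn2* went from 1.46 ± 0.33% to 3.38 ± 0.58% in BPAC (SD, n = 4) and *Cldn23* from 3.29 ± 0.28% to 1.88 ± 0.43%. *Cldn15* and *Cldn12*, whose levels did not pass the test, also gained in share in BPAC, from 3.51% to 5.55% and from 0.56% to 1.02%. *Cldn3* made up 50.9 ± 1.43% of the claudin transcripts in BPAC with EtOH and 43.9 ± 2.54% with 4-HT, whereas *Cldn7* went from 35.4 ± 0.93% to 39.7 ± 0.56%. In AC the *Cldn3* share was 53.2 ± 0.73% with EtOH and 52.1 ± 0.30% with 4-HT (SD, n = 2). Shares are parts of one total and are not independent of each other.

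**Figure D1:**
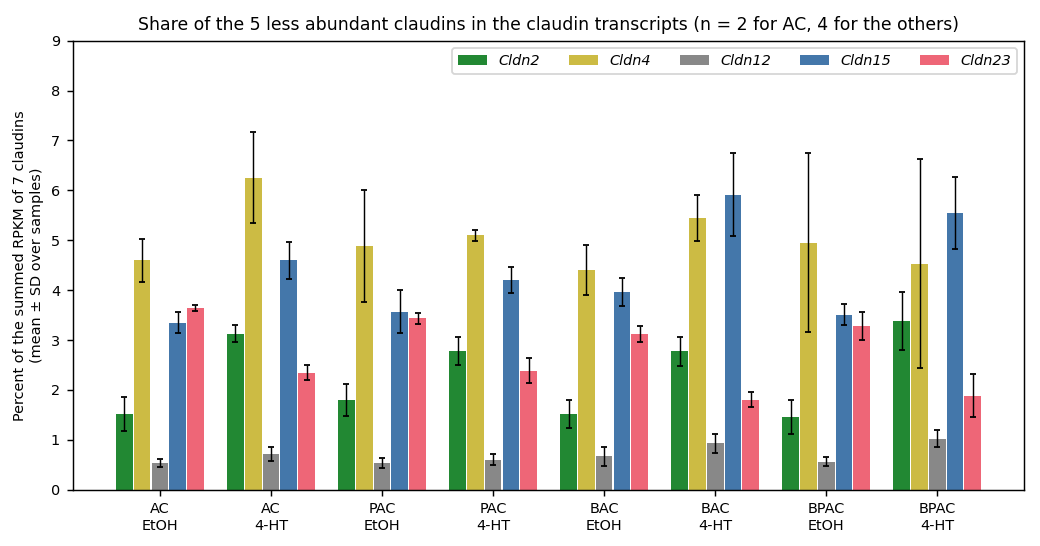
Mean share of each of the 5 less abundant claudins in the summed RPKM of 7 claudins, in percent (vertical axis, starting at 0), for the 8 groups of genotype and treatment; bars are means and error bars SD over samples (n = 2 for AC, 4 for the others). *Cldn2* (green) takes a larger share and *Cldn23* (red) a smaller one with 4-HT than with EtOH in each genotype, for example 3.38% against 1.46% and 1.88% against 3.29% in BPAC. *Cldn12* and *Cldn15* also take larger shares with 4-HT in each genotype.

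Of the crypt-type claudins, *Cldn2* was higher with 4-HT in 12 of 14 cultures. In AC it measured 128 and 157 CPM with EtOH and 226 and 214 CPM with 4-HT. In PAC the 4 cultures had 182, 151, 197 and 166 CPM with EtOH and 216, 217, 195 and 209.6 CPM with 4-HT. The treatments did not overlap in AC, and in PAC culture 3 was the exception, with nearly equal levels. BAC cultures had 138, 117, 141 and 139.7 CPM with EtOH and 184, 183, 137 and 175 CPM with 4-HT. BPAC cultures had 119.8, 167, 116 and 161 CPM with EtOH and 161, 213, 183 and 208 CPM with 4-HT. Every BPAC culture rose, although the treatments overlapped, and cultures 2 and 4, from one donor, were higher than cultures 1 and 3 in both arms. With EtOH, *Xist* was 80.1 and 93.0 CPM in BPAC cultures 2 and 4 and 0 CPM in cultures 1 and 3. The AC libraries had at most 0.108 CPM of *Xist*, whereas each other genotype had a donor with *Xist*. Donor sex was thus not balanced between AC and the other genotypes, and its part in these values was not tested. In BAC culture 3 was again level between the arms.

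The log2 change of *Cldn2* was 0.44 ± 0.12 in BPAC (SE, n = 4 cultures, edgeR adjusted p = 0.00405) and passed the test, but not with counts summed per donor (0.45, adjusted p = 0.0389), with the genotype fitted alone (adjusted p = 0.0254) or with duplicate 1 or 2 alone (adjusted p = 0.0979 and 0.0445). It did not pass in BAC (0.34 ± 0.12, adjusted p = 0.022), PAC (0.27 ± 0.12, adjusted p = 0.0914) or AC (0.63 ± 0.17, n = 2, adjusted p = 0.0157). With each culture as a block, AC (adjusted p = 0.00448) and BAC (adjusted p = 0.00972) also passed, but neither did with counts summed per donor (adjusted p = 0.104 and 0.0641). With library size alone it passed in BAC (0.51, adjusted p = 0.00215), PAC (0.49, adjusted p = 0.00398) and AC (0.85, adjusted p = 0.00221). The PAC change was 0.16 without PAC cultures 1 and 2 (adjusted p = 0.629). Without BPAC culture 3 the BPAC change was 0.38 and no longer passed (adjusted p = 0.0236), and without BAC culture 3 the BAC change was 0.46 and passed (adjusted p = 0.00823).

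*Cldn15*, the other cation-pore claudin, showed no such rise. BPAC cultures had 222, 219, 219 and 213 CPM with EtOH and 239, 196, 173 and 199 CPM with 4-HT, and the groups overlapped. Its log2 changes were -0.11 ± 0.12 in BPAC, 0.02 ± 0.12 in BAC, -0.13 ± 0.12 in PAC and 0.04 ± 0.17 in AC (SE), none of which passed the test (adjusted p 0.416 to 0.922). The PAC value was -0.12 without PAC cultures 1 and 2. The PAC and BPAC values turned positive when library size alone was used for scaling.

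Among the surface-type claudins, *Cldn23* fell most. AC cultures had 206 and 178 CPM with EtOH and 93.9 and 89.7 CPM with 4-HT. In PAC the levels were 189.6, 218, 179.8 and 160.0 CPM with EtOH and 95.2, 98.6, 119.9 and 86.3 CPM with 4-HT. The treatments did not overlap in either genotype. BAC cultures went from 159.8, 177, 126 and 162 CPM to 65.7, 65.6, 52.1 and 61.8 CPM. BPAC cultures went from 203, 174, 153 and 183 CPM to 52.4, 49.5, 78.5 and 57.0 CPM. Every one of the 14 cultures had less *Cldn23* with 4-HT, and BPAC culture 3 kept the most among the BPAC cultures. In the order AC, PAC, BAC and BPAC, the log2 changes were -1.07 ± 0.19, -0.90 ± 0.14, -1.35 ± 0.14 and -1.59 ± 0.14 (SE), with edgeR adjusted p-values of 0.000889, 3.47e-05, 2.28e-08 and 1.65e-09. Without PAC cultures 1 and 2 the PAC change was -0.72 and did not pass (adjusted p = 0.0397). Without AC culture 1 or 2, leaving 1 AC culture assumed to vary like the other groups, the AC change was between -1.13 and -0.99, with adjusted p-values up to 0.0756.

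*Cldn3*, the most abundant member, was lower with 4-HT in all 14 cultures. The levels were 2052 and 1782 CPM with EtOH and 1478 and 1305 CPM with 4-HT in AC. In PAC they were 1976, 2113, 1879 and 1713 CPM with EtOH and 1512, 1622, 1579.6 and 1284 CPM with 4-HT. The highest 4-HT sample was below the lowest EtOH sample in both. BAC cultures fell from 1859.5, 2015, 1423 and 1635 CPM to 1246, 1096, 894 and 906 CPM. BPAC cultures fell from 2085, 1937, 1731 and 1769 CPM to 1033, 1026, 886 and 852 CPM. Here too the arms did not overlap. The log2 change passed the test in BAC (-0.74 ± 0.12, SE, adjusted p = 1.40e-05) and BPAC (-0.99 ± 0.12, adjusted p = 2.29e-07). In AC (-0.46 ± 0.17, adjusted p = 0.0613) and PAC (-0.36 ± 0.12, adjusted p = 0.0218) it did not, but both passed with each culture as a block (adjusted p = 0.00238 and 0.000463) and neither with counts summed per donor (adjusted p = 0.0275 and 0.0102). With library size alone the change was -0.24 in AC (adjusted p = 0.304) and -0.13 in PAC (adjusted p = 0.382). The PAC change was -0.33 without cultures 1 and 2 (adjusted p = 0.263).

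*Cldn7*, which like *Cldn3* is a barrier claudin of high abundance, also fell in all 14 cultures and passed the test in every genotype. It ranged from 1707 to 2292 CPM with EtOH and from 1321 to 1507 CPM with 4-HT in PAC, and from 1881 to 2173 CPM and 1195 to 1395 CPM in BPAC. The log2 change was -0.61 ± 0.09 in BPAC (adjusted p = 7.28e-06), -0.43 ± 0.09 in BAC (adjusted p = 0.000521), -0.43 ± 0.09 in PAC (adjusted p = 0.00104) and -0.53 ± 0.13 in AC (adjusted p = 0.008), each with its SE. With library size alone the changes were smaller, at -0.31, -0.21 and -0.26 in AC, PAC and BAC, and did not pass there. Without PAC cultures 1 and 2 the PAC change was -0.35 (adjusted p = 0.0948), and without culture 2 alone -0.36 (adjusted p = 0.0119). The AC change was -0.51 without AC culture 1 and -0.55 without AC culture 2, with adjusted p-values up to 0.164. The AC call was also lost, at -0.53 and adjusted p-values up to 0.0130, without PAC culture 1, BAC culture 1, 2 or 3, or BPAC culture 1 or 2. It did not pass with counts summed per donor (-0.56, adjusted p = 0.0174), duplicate 1 alone (adjusted p = 0.0153) or the genotype fitted alone (adjusted p = 0.0502), nor did the PAC change in the last of these (adjusted p = 0.0160). With duplicate 2 alone *Cldn7* missed the threshold in AC, PAC and BAC (adjusted p = 0.170, 0.125 and 0.0140).

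*Cldn4*, the neighbour of *Cldn3*, was the least uniform member. In AC it measured 237 and 239 CPM with EtOH and 283 and 202 CPM with 4-HT. In PAC it measured 215, 399.7, 227 and 217 CPM with EtOH and 216, 224, 223 and 179 CPM with 4-HT. PAC culture 2 with EtOH stood far above the other PAC samples. BAC cultures had 215, 274, 161 and 220.1 CPM with EtOH and 220.1, 206, 143 and 166 CPM with 4-HT. BPAC cultures had 405, 168, 312 and 184 CPM with EtOH and 109, 109.9, 242 and 105 CPM with 4-HT. All 4 BPAC cultures had less *Cldn4* with 4-HT, but culture 3 with 4-HT was still higher than cultures 2 and 4 with EtOH. The log2 changes were -0.92 ± 0.28 in BPAC (adjusted p = 0.00678), -0.24 ± 0.28 in BAC (adjusted p = 0.474), -0.33 ± 0.28 in PAC (adjusted p = 0.364) and 0.03 ± 0.39 in AC (adjusted p = 0.974), each with its SE, and it passed in BPAC alone. The PAC change was -0.094 without PAC culture 2 and -0.14 without PAC cultures 1 and 2. The BPAC call was lost without BPAC culture 1 (-0.54, adjusted p = 0.137) or culture 4 (-0.94, adjusted p = 0.0145), with library size alone (-0.69, adjusted p = 0.0288), with counts summed per donor (-0.94, adjusted p = 0.0256), with the genotype fitted alone (-0.88, adjusted p = 0.0547) and with duplicate 2 alone (-0.51, adjusted p = 0.264).

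*Ocln* fell in all 14 cultures and passed the test in every genotype. In AC it measured 355 and 359 CPM with EtOH and 218 and 254 CPM with 4-HT. BPAC cultures had 319, 299, 299 and 369 CPM with EtOH and 166, 150.4, 205 and 167 CPM with 4-HT, without overlap between the arms. In the order AC, PAC, BAC and BPAC, the log2 changes were -0.60 ± 0.15, -0.60 ± 0.10, -0.79 ± 0.10 and -0.90 ± 0.10 (SE), with edgeR adjusted p-values of 0.00716, 0.000126, 8.93e-07 and 9.84e-08. The PAC call was lost without cultures 1 and 2 (-0.48, adjusted p = 0.039), and the AC call with library size alone (-0.38, adjusted p = 0.0540), with counts summed per donor (-0.63, adjusted p = 0.0116) and with the genotype fitted alone (adjusted p = 0.0298). With duplicate 2 alone it did not pass in AC (adjusted p = 0.219) or PAC (adjusted p = 0.0781). The AC change was -0.50 without AC culture 1 and -0.71 without AC culture 2 (adjusted p = 0.227 and 0.0711). Without BAC culture 1, 2 or 3 or BPAC culture 1 it was still -0.60, with adjusted p-values up to 0.0115.

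*Tjp1* was lower with 4-HT in all 14 cultures as well, but passed the test in none of the genotypes. BPAC cultures had 103, 74.1, 176 and 138 CPM with EtOH and 58.0, 56.8, 108 and 97.6 CPM with 4-HT. The arms overlapped, and duplicate 2 (cultures 3 and 4) was higher than duplicate 1 of the same donor and treatment. This held in 14 of 14 pairs of duplicates over all genotypes, by a mean of 0.65 on the log2 scale, a shift larger than that of 97.4% of all genes. The log2 changes were -0.62 ± 0.27 in BPAC (adjusted p = 0.0539), -0.49 ± 0.27 in BAC (adjusted p = 0.132), -0.44 ± 0.27 in PAC (adjusted p = 0.207) and -0.71 ± 0.38 in AC (adjusted p = 0.213), each with its SE. With each culture as a block they were, again from BPAC to AC, -0.60 ± 0.09, -0.50 ± 0.09, -0.49 ± 0.09 and -0.72 ± 0.13, and all passed (adjusted p = 1.91e-05, 0.000151, 0.00036 and 0.000834). With counts summed per donor *Tjp1* passed in BPAC (adjusted p = 0.00105) and BAC (adjusted p = 0.00693), but not in PAC (adjusted p = 0.0169) or AC (adjusted p = 0.0211). The PAC change was -0.28 without PAC cultures 1 and 2 (adjusted p = 0.679).

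*Cldn12*, a claudin without an assigned crypt or surface pattern here, passed the test in no genotype. It ranged from 59.0 to 76.7 CPM with EtOH and from 63.3 to 82.2 CPM with 4-HT in BPAC. Its log2 changes were 0.08 ± 0.11 in BPAC, -0.07 ± 0.11 in BAC, -0.20 ± 0.11 in PAC and -0.01 ± 0.16 in AC (SE). In PAC the value was -0.12 without cultures 1 and 2, and with library size alone the values in AC, PAC and BAC were positive.

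**Figure D2:**
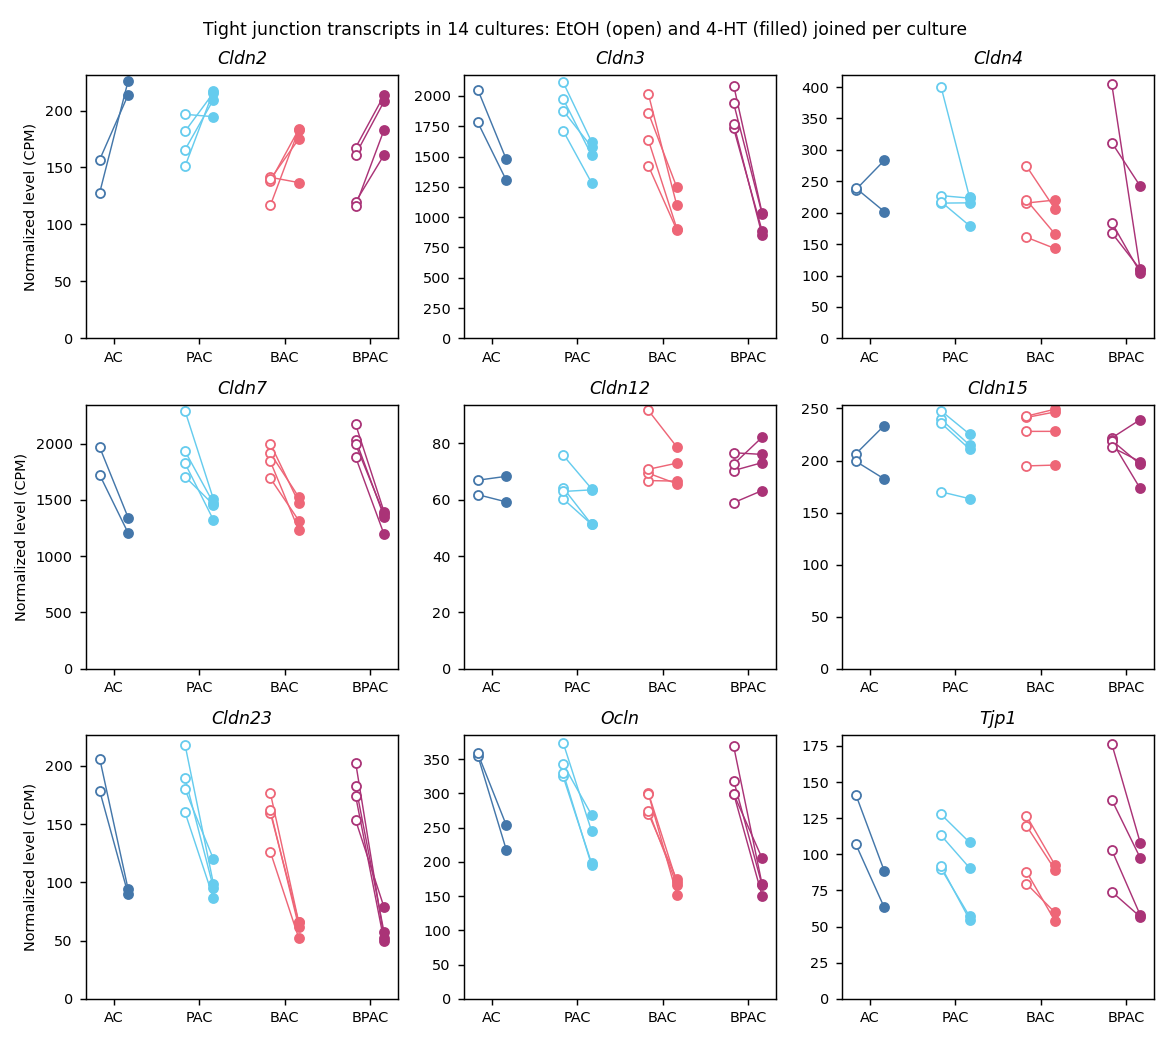
Normalized level (CPM, vertical axes starting at 0) of the 9 members in 14 cultures, grouped by genotype; open circles are EtOH samples, filled circles 4-HT samples, and lines join the samples of 1 culture. Lines for *Cldn3*, *Cldn7*, *Cldn23*, *Ocln* and *Tjp1* run down in 14 of 14 cultures and those for *Cldn2* run up in 12 of 14.

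Counted together, 3 of the 9 members passed the test in AC, all lower with 4-HT (*Cldn7*, *Cldn23* and *Ocln*), where 7.25% of all genes passed in either direction. The same 3 passed in PAC, against 23.4% of all genes. In BAC 4 members passed, the 3 named and *Cldn3*, a share close to the 41.9% of all genes. In BPAC 6 members passed, against 45.0% of all genes, with *Cldn3*, *Cldn4*, *Cldn7*, *Cldn23* and *Ocln* lower and *Cldn2* higher. The median log2 change of the members in the order AC, PAC, BAC and BPAC was -0.46, -0.36, -0.43 and -0.62, beside medians of all genes of 0.01, -0.03, -0.04 and -0.04. With each culture as a block, which calls more of all genes, the members passing numbered 7 in BPAC (54.4% of all genes), 6 in BAC (51.9%), 5 in PAC (34.9%) and 6 in AC (16.4%). Without PAC cultures 1 and 2 no member passed in PAC, with a PAC median of -0.28 for the members, and 0.355% of all genes did. With duplicate 2 alone, which has 1 to 2 cultures per genotype, no member passed in AC (0.0962% of all genes) or PAC (0.0518%). Without AC culture 1 or 2 the AC number was 0, where 0.0666% and 0.178% of all genes passed. With counts summed per donor 1 member passed in AC (5% of all genes), and in BPAC *Cldn2* (adjusted p = 0.0389) and *Cldn4* (adjusted p = 0.0256) then did not pass, whereas *Tjp1* did in BAC and BPAC.

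**Figure D3:**
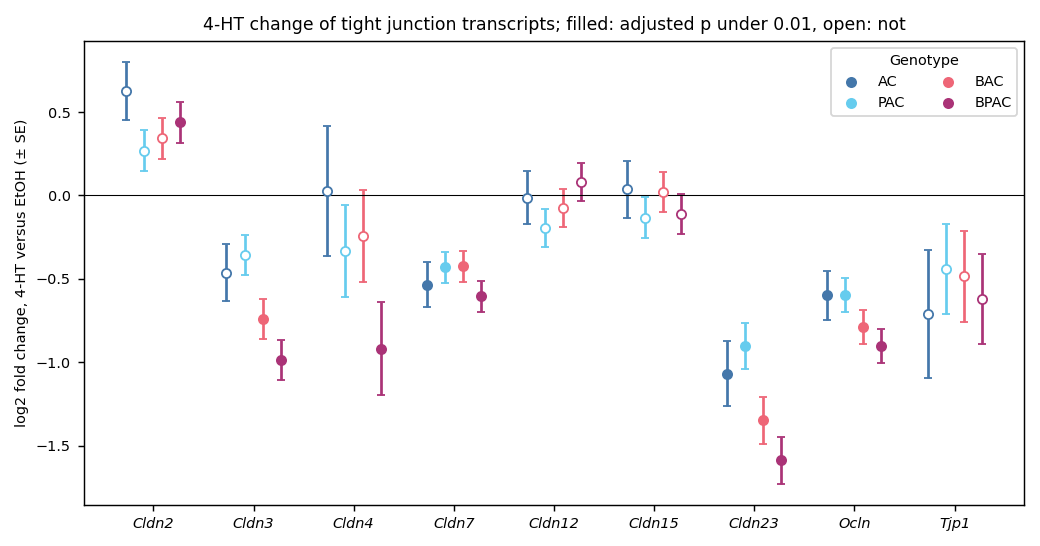
Log2 fold change of each member with 4-HT against EtOH (vertical axis) in the 4 genotypes, from the edgeR fit; error bars are SE, filled points have an adjusted p under 0.01 and open points do not. *Cldn23* lies lowest in each genotype, from -0.90 in PAC to -1.59 in BPAC, and *Cldn2* lies above 0 in all of them.

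The contrast of crypt-type with surface-type claudins was described per culture as the mean log2 CPM of *Cldn2* and *Cldn15* minus that of *Cldn3*, *Cldn4*, *Cldn7* and *Cldn23*. It was higher with 4-HT in 14 of 14 cultures, by 1.19 ± 0.33 in BPAC, 0.87 ± 0.24 in BAC and 0.56 ± 0.31 in PAC (SD, n = 4), and by 0.84 ± 0.19 in AC (SD, n = 2). In PAC cultures 3 and 4 alone it was higher by 0.18 and 0.65. With TMM scaling the mean log2 change of the 4 surface-type claudins was -0.51, -0.49, -0.69 and -1.03 in the order AC, PAC, BAC and BPAC, whereas the mean change of the pair of crypt-type claudins was 0.33, 0.07, 0.18 and 0.16. How the contrast divided between its sides depended on the scaling. With library size alone the surface-type mean was -0.29, -0.27, -0.52 and -0.82 in the same order and the crypt-type mean 0.55, 0.30, 0.34 and 0.38. With EtOH the contrast ranged from -2.26 to -1.503 in the 8 cultures carrying the Braf allele and from -2.06 to -1.48 in the 6 without it. With 4-HT it ranged from -1.13 to -0.46 and from -1.30 to -1.06, and BPAC culture 3, where *Cldn4* stayed high, was the carrier that overlapped the cultures without the allele. Since the genes of the contrast were picked by name with earlier results known, it was not tested.

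**Figure D4:**
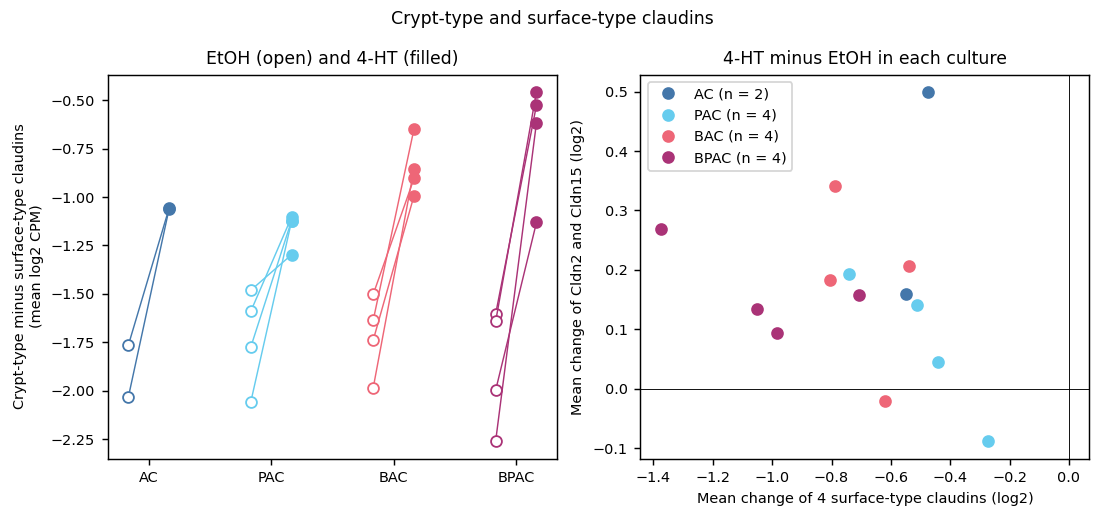
Left, crypt-type minus surface-type claudins (mean log2 CPM) per culture with EtOH (open) and 4-HT (filled), joined by culture; right, for each culture the mean 4-HT change of the 4 surface-type claudins (horizontal, log2) against that of *Cldn2* and *Cldn15* (vertical, log2). All 14 lines on the left rise, and all 14 points on the right lie left of 0, with 3 of the 4 BPAC cultures furthest to the left.

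Markers of the differentiated surface summed to less, and those of the crypt base to more, with 4-HT than with EtOH in each genotype. The 8 surface colonocyte markers (*Krt20*, *Slc26a3*, *Car4*, *Aqp8*, *Car1*, *Ceacam20*, *Guca2a* and *Slc37a2*) were all measured, none was at 0 in any sample, and they summed to 19109 to 21138 CPM in AC with EtOH and 5537 to 6071 CPM with 4-HT. The corresponding ranges were 19094 to 22173 and 6692 to 10869 CPM in PAC, 15466 to 17348 and 4258 to 6509 CPM in BAC, and 17675 to 25288 and 2979 to 7397 CPM in BPAC. Of these, all 8 passed the test as lower in BPAC, 7 in BAC, 5 in PAC and 4 in AC. In the same order, 45.0%, 41.9%, 23.4% and 7.25% of all genes passed in either direction. In AC *Aqp8* (log2 change -0.72), *Car4* (-1.64), *Slc26a3* (-0.72) and *Slc37a2* (-0.16) were also lower without passing. The 8 crypt base markers (*Lgr5*, *Ascl2*, *Axin2*, *Smoc2*, *Lrig1*, *Slc12a2*, *Sox9* and *Ephb2*), none of them at 0, summed to 1006 to 1228 CPM with EtOH and 2031 to 2100 CPM with 4-HT in AC, 718 to 1204 and 1634 to 1710 CPM in PAC, 813 to 1113 and 1451 to 1604 CPM in BAC, and 792 to 1053 and 1476 to 1729 CPM in BPAC. The number that rose was 4 (AC), 7 (PAC), 6 (BAC) and 8 (BPAC). In PAC without cultures 1 and 2, 0.355% of all genes passed. None of the surface markers did (median log2 change -1.15), and 1 of the crypt base markers did (median 0.65). The part of these shifts in the claudin values was not tested.

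To ask whether the Braf allele altered these changes, the average 4-HT change in AC and PAC was subtracted from that in BAC and BPAC. No member passed this test in edgeR, where 6.61% of all genes did (413 higher and 480 lower, or 272 and 514 with library size alone). At an unadjusted p under 0.05 there were 3 (*Cldn3*, *Cldn23* and *Ocln*) in edgeR, 3 in limma-voom and 2 in DESeq2, and DESeq2 called 1 of them. In edgeR, 3857 of all 13519 genes had an unadjusted p under 0.05 for this difference. The differences were -0.46 ± 0.13 for *Cldn3* (SE, adjusted p = 0.0228), -0.48 ± 0.15 for *Cldn23* (adjusted p = 0.0337) and -0.25 ± 0.12 for *Ocln* (adjusted p = 0.156) on the log2 scale. *Cldn3* passed with each culture as a block (adjusted p = 0.000515) and with DESeq2 (adjusted p = 0.00923), but not with counts summed per donor (-0.39, adjusted p = 0.0282). *Cldn23* passed without BPAC culture 3 (-0.60, adjusted p = 0.00293). In the same cultures, *Cldn3* was the 1 of 9 members whose 4-HT change did not overlap between the 8 with the allele (-1.05 to -0.58) and the 6 without it (-0.47 to -0.25). Of all genes, 9.36% showed such a pattern in either direction. The remaining differences were -0.43 ± 0.31 for *Cldn4*, -0.06 ± 0.14 for *Cldn2*, -0.03 ± 0.11 for *Cldn7*, 0.11 ± 0.13 for *Cldn12*, 0.00 ± 0.14 for *Cldn15* and 0.03 ± 0.30 for *Tjp1* (SE). Without BPAC culture 1 the *Cldn4* difference was -0.24 (adjusted p = 0.658). Without PAC cultures 1 and 2 the values were -0.47 for *Cldn3*, -0.57 for *Cldn23* and -0.31 for *Ocln*, with adjusted p-values of 0.043, 0.0298 and 0.0778.

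Comparing levels with 4-HT directly, BAC and BPAC against AC and PAC, 3 members passed, against 30.2% of all genes. These samples are shared with the comparisons above. All 3 were lower with the Braf allele, *Cldn23* with a difference of -0.67 ± 0.11 (SE, adjusted p = 2.53e-05), *Cldn3* -0.54 ± 0.09 (adjusted p = 6.04e-05) and *Ocln* -0.45 ± 0.08 (adjusted p = 9.01e-05) on the log2 scale. *Cldn2* was -0.25 ± 0.10 (adjusted p = 0.038) and *Cldn12* 0.26 ± 0.09 (adjusted p = 0.0234), both short of the threshold, though *Cldn12* passed with counts summed per donor (0.27, adjusted p = 0.00796), with duplicate number as a covariate (adjusted p = 0.000840) and without BPAC culture 2 (adjusted p = 0.00928). Without PAC cultures 1 and 2 the differences were -0.69 for *Cldn23*, -0.51 for *Cldn3* and -0.54 for *Ocln*, and all 3 still passed. Of 26 alternatives, 1 lost the *Cldn23* call, and the calls of *Cldn3* and *Ocln* held in each. *Cldn4* was -0.49 ± 0.22 (adjusted p = 0.0698) and passed without BPAC culture 3 (-0.68, adjusted p = 0.00565). With EtOH, where the allele was not recombined, no member passed for the Braf allele (0.0296% of all genes passed), and unadjusted p was under 0.05 for 1 member in edgeR and limma-voom and 2 in DESeq2, none called. The 1 in edgeR was *Ocln* (-0.21 ± 0.08, adjusted p = 0.203). For this level with EtOH, 2319 of all 13519 genes had an unadjusted p under 0.05 in edgeR.

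The Trp53 allele was examined in the same samples, as PAC and BPAC against AC and BAC. No member passed for its effect on the 4-HT change (0.0148% of all genes passed) or on the level with EtOH (0.0592%), and none had an unadjusted p under 0.05 in edgeR, limma-voom or DESeq2. Of all 13519 genes, 140 had an unadjusted p under 0.05 in edgeR for the 4-HT change and 671 for the level with EtOH. The differences in the 4-HT change lay between -0.52 ± 0.31 (SE) for *Cldn4* and 0.07 ± 0.30 for *Tjp1* on the log2 scale. The *Cldn4* difference was -0.33 without BPAC culture 1, -0.96 with duplicate 1 alone and -0.056 with duplicate 2 alone, and none of these passed.

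Of 17 other claudins, *Cldn8* and *Cldn14* were measured. *Cldn8*, a sealing claudin of the distal colon, fell furthest of the claudins in PAC, BAC and BPAC. BAC cultures had 36.4, 37.4, 53.6 and 54.9 CPM with EtOH and 4.27, 5.19, 5.32 and 6.38 CPM with 4-HT. BPAC cultures had 36.9, 22.5, 59.2 and 42.5 CPM with EtOH and 3.55, 4.00, 11.4 and 6.06 CPM with 4-HT. In AC it measured 14.99 and 24.7 CPM with EtOH and 11.3 and 10.4 CPM with 4-HT. The arms did not overlap in any of these 3 genotypes, and with 4-HT every BAC and BPAC culture except BPAC culture 3 was below both AC cultures. The log2 change was -2.70 ± 0.35 in BPAC (adjusted p = 6.10e-07), -3.11 ± 0.36 in BAC (adjusted p = 1.25e-07), -1.61 ± 0.34 in PAC (adjusted p = 0.000695) and -0.87 ± 0.47 in AC (SE, adjusted p = 0.217). Its difference with the Braf allele, -1.66 ± 0.38, passed the test (adjusted p = 0.00411) and was lost without AC culture 1 (-1.47, adjusted p = 0.0541), AC culture 2 (-1.90, adjusted p = 0.0135) or PAC culture 3 (-1.58, adjusted p = 0.0112), and with counts summed per donor (adjusted p = 0.0132). The PAC change was -1.33 (adjusted p = 0.0779) without PAC cultures 1 and 2.

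*Cldn14* was a rare transcript, between 16 and 113 counts per sample. It had 0.86, 1.20, 0.76 and 1.18 CPM with EtOH and 3.41, 2.74, 1.23 and 1.47 CPM with 4-HT in PAC, and 1.83, 3.64, 1.31 and 2.22 CPM with EtOH and 1.05, 1.27, 0.63 and 0.882 CPM with 4-HT in BAC. The 4-HT change was 1.15 ± 0.42 in PAC (SE, adjusted p = 0.0341) and -1.21 ± 0.41 in BAC (adjusted p = 0.0161), and in PAC without cultures 1 and 2 it was 0.47 (adjusted p = 0.667). BPAC samples had 2.84, 1.03, 1.21 and 0.714 CPM with EtOH and 0.967, 1.07, 1.13 and 0.559 CPM with 4-HT, and AC samples 1.36 and 0.799 CPM and 2.83 and 1.15 CPM. The treatments overlapped in both, with changes of -0.61 ± 0.42 (adjusted p = 0.221) and 0.89 ± 0.59 (adjusted p = 0.327). The BPAC change was -0.096 without BPAC culture 1 (adjusted p = 0.877). None of its changes within a genotype passed, but the difference with the Braf allele did (-1.93 ± 0.47, SE, adjusted p = 0.00656). It was -1.59 (adjusted p = 0.0407) without PAC cultures 1 and 2, and the call was lost without AC culture 1 or 2, PAC culture 1 or 2, BAC culture 1, 2 or 4, or BPAC culture 1, with adjusted p-values up to 0.0612, with counts summed per donor (adjusted p = 0.0262) and with limma-voom (adjusted p = 0.0171).

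Of 35 partners of the junction (scaffolds, polarity proteins and other membrane proteins), 32 were measured. In AC 0 passed the test as higher and 4 as lower, in PAC 2 and 10, in BAC 2 and 15, and in BPAC 2 and 17. Of all genes, 406 and 574, 1511 and 1655, 2751 and 2909, and 2979 and 3110 did so in the same order. Their median log2 change was -0.25, -0.27, -0.41 and -0.53. In PAC without cultures 1 and 2, 0 passed (0.355% of all genes did) and the median was -0.22. Those furthest down in BPAC after *Cldn8* were *Magi2* (-1.37 ± 0.23, SE, adjusted p = 1.59e-05), a membrane-associated scaffold, and *Cxadr* (-1.33 ± 0.19, adjusted p = 1.79e-06), a junctional adhesion protein that is also a virus receptor. *Cxadr* averaged 315 ± 53.1 CPM with EtOH and 125 ± 41.2 CPM with 4-HT in BPAC (SD, n = 4). The 2 genes that passed as higher in BPAC were *Lsr* (0.96 ± 0.18, adjusted p = 5.71e-05), a protein of tricellular junctions, and *Sympk* (0.46 ± 0.09, adjusted p = 0.000129), which also acts in mRNA polyadenylation. *Lsr* went from 88.8 ± 18.2 CPM to 173 ± 44.1 CPM.

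**Figure D5:**
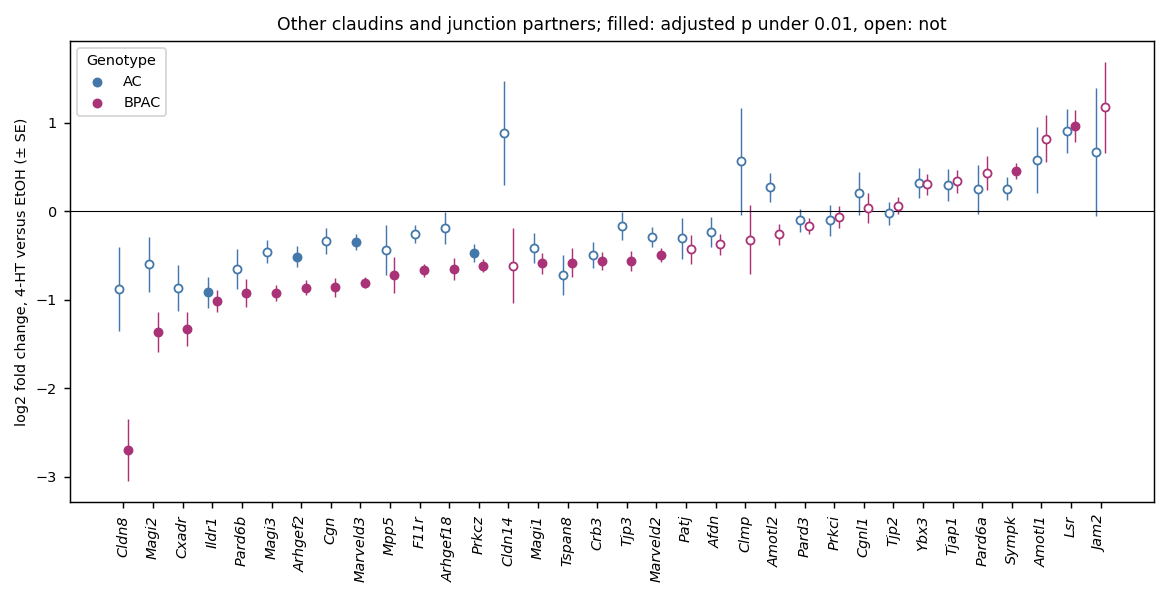
Log2 fold change with 4-HT against EtOH (vertical axis) of *Cldn8*, *Cldn14* and 32 junction partners in AC and BPAC, ordered by the BPAC value; error bars are SE, filled points have an edgeR adjusted p under 0.01 and open points do not. In BPAC 18 of the 34 genes are filled below 0, from *Cldn8* at -2.70, and 2, *Lsr* at 0.96 and *Sympk* at 0.46, are filled above it.

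For the Braf allele, 4 of the 32 partners had a more negative 4-HT change and 0 a more positive one, where 6.61% of all genes passed. These were *Marveld3* (-0.38 ± 0.07, SE, adjusted p = 0.000643), a relative of occludin, *Arhgef2* (-0.40 ± 0.09, adjusted p = 0.00462), a junction-bound activator of RhoA, *Amotl2* (-0.55 ± 0.13, adjusted p = 0.00543), an angiomotin, and *F11r* (-0.34 ± 0.08, adjusted p = 0.00687), the junctional adhesion molecule JAM-A. *Marveld3* averaged 71.5 and 71.8 CPM with 4-HT in AC and PAC and 59.4 and 55.5 CPM in BAC and BPAC. Without AC culture 1 all 4 calls were lost, *Marveld3* with an adjusted p of 0.0171, and without AC culture 2 those of the other 3 were. The *Arhgef2* call was also lost without BAC culture 1 or 2 or BPAC culture 1, and the *Amotl2* call without PAC culture 3 or 4, BAC culture 2 or 3 or BPAC culture 1 or 4. The *F11r* call was kept only without PAC culture 2, BAC culture 1 or BPAC culture 3. The *Arhgef2* and *F11r* calls were lost without PAC cultures 1 and 2 together (adjusted p = 0.0144 and 0.0178), and all 4 calls with counts summed per donor.

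The genes whose log2 CPM followed *Cldn2* most closely over the 28 samples were *Cd244a* (Pearson r = 0.89), *Mmp7* (r = 0.88) and *Tnfrsf19* (r = 0.85). Within groups, after removal of each group's mean, r was 0.71, 0.80 and 0.67. *Cd244a* averaged 0.41 CPM, so its values rest on few reads. Among the genes most like *Cldn4* were *Pcsk1n* (r = 0.80) and *Lrrfip1* (r = 0.79), with 0.81 and 0.84 within groups. The samples share cultures, donors and treatments, and these values describe the likeness without a test.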

How the data were processed

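RNA was sequenced from 28 samples of mouse colon organoids: 14 cultures, each with an EtOH and a 4-HT arm. The authors deposited raw read counts per gene, made after trimming with Trimmomatic 0.39 and alignment with STAR 2.5.2b to GRCm38 per the submitters' processing notes. The counter is not given in the sources used here. The deposited counts held 13519 genes, with at least 116 reads each over all samples, so genes below that were not analysed here. Genes were matched to GENCODE M21 for 13479 of 13519 identifiers, and exon lengths gave RPKM. The rest held 0.0469% of all counts and remained in the fit.

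Counts were fitted with edgeR 4.0.16 (R 4.3.3; quasi-likelihood test, TMM scaling, 1 mean for each of 8 groups), and p-values were adjusted by Benjamini-Hochberg over all 13519 genes, with 0.01 as threshold. The common biological coefficient of variation was 0.191. Alternatives were limma-voom (limma 3.58.1), DESeq2 1.42.0, other scalings and filters, a culture block, donor sums, single duplicates, thinning and leaving out cultures. The duplicate number as a covariate was added after seeing the data. The titles tie the arms of a culture together, except that the 4-HT title of BAC culture 1 has no duplicate number and was taken as duplicate 1, and their deviations from group means correlated in 12 cultures of PAC, BAC and BPAC, at r = 0.245 to 0.532. On simulated counts for 13519 genes with 200 changed 2-fold, edgeR recovered 44.5% for the AC comparison and 63.5% for the BPAC comparison. Depth of 20577276 to 40068718 counts per sample leaves counting error small for members, each with at least 1255 counts. Promoter sequences came from RefSeq (GRCm38.p6).

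The members, gene lists, tests and rules for named genes were chosen with earlier results of these data known. Genes were named by rule: all members, of the other claudins and partners those passing for the Braf difference and, among those passing in BPAC, the 3 that rose most (only 2 rose) and the 3 that fell most, and the 3 genes with the highest Pearson r of log2 CPM with *Cldn2* and with *Cldn4*, of which 1 is not reported here.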

Additional observations from a re-analysis of the deposited data

Results flagged for a closer look

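In groups of 4 samples, 84 series of member values were screened for 1 value far from the other 3, by Dixon's ratio of its gap to the whole range (95% critical value). Chance alone gives about 1 in 20, and 6 were found. For *Cldn2* these were BAC culture 2 with EtOH (116.6 CPM, ratio 0.865) on the low side and BAC culture 3 with 4-HT (137 CPM, ratio 0.838), also low. For *Cldn4* they were PAC culture 2 with EtOH (399.7 CPM, ratio 0.913) and BPAC culture 3 with 4-HT (242 CPM, ratio 0.943), both high. *Cldn15* was low in PAC culture 4 with EtOH (169.9 CPM, ratio 0.870). The 4-HT change of *Tjp1* in BAC culture 2 was more negative than in the other 3 BAC cultures (ratio 0.876).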

How the results depend on the processing

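Over the 4-HT changes, the Braf difference in them and the level with 4-HT of the 5 members with an adjusted p under 0.05 there, of 1381 values recomputed under the alternatives 1267 kept their direction and their side of the threshold, 49 lost a call, 34 gained one and 31 changed sign, none of which had passed the test. Of 815 values in the other comparisons, 743 kept both, 71 changed sign and 1 gained a call. Among those, the Trp53 difference for *Tjp1* was -0.0054 with duplicate 1 alone. The causes were not tested. The number of members passing in AC, 3 (7.25% of all genes), was 6 with the replicate block (culture) (16.4% of all genes) and with duplicate number as a covariate (15.3%), 1 with each genotype fitted alone (1.87%) and with counts summed per donor (5%), and 0 with duplicate 2 alone (0.0962%). In PAC, 3 (23.4% of all genes) became 5 with the replicate block (34.9%), duplicate 1 alone (29.4%) or the covariate (33.2%), and 0 with duplicate 2 alone (0.0518%) or without the duplicate 1 cultures of both donors (0.355%). For the Braf difference in the 4-HT change, 0 (6.61% of all genes) became 2 at an adjusted p under 0.05 (14.7%) and 1 with DESeq2 (10.7%), the block (14%) or the covariate (13%). For the level with 4-HT 3 (30.2%) became 5 at 0.05 (43.7%). Pairing the arms by culture moved no other count beyond 1.5 times. With *Cldn2* and *Cldn4* alone, the change in the crypt-minus-surface contrast was 1.37 in BPAC, 0.57 in BAC, 0.56 in PAC and 0.63 in AC. Leaving out 1 culture gave at most 3 members in AC (at most 10.1% of all genes) and 2 to 3 in PAC (10.5% to 26.5%). It gave 4 to 5 in BAC (32.7% to 44.2%) and 5 to 6 in BPAC (35.1% to 45.7%). For the Braf difference it gave 0 to 1 (8.26% without BPAC culture 3, where it was 1). For the level with 4-HT it gave 3 to 4 (28.8% and 32.1% without BPAC culture 2 or 3, where it was 4), and 0 elsewhere. The contrast then changed by 0.71 to 0.97 in AC, 0.44 to 0.69 in PAC, 0.78 to 0.96 in BAC and 1.04 to 1.30 in BPAC, and by 0.25 to 0.39 more with the Braf allele. Sign changes with library size alone were *Cldn12* in AC (0.21), PAC (0.025) and BAC (0.093), *Cldn15* in PAC (0.094) and BPAC (0.10), and *Cldn15* for the Braf difference (-0.031). With duplicate 2 alone they were *Cldn4* (-0.25), *Cldn12* (0.029) and *Cldn15* (-0.13) in AC, and *Cldn2* (0.020) and *Tjp1* (-0.049) for the Braf difference. That difference also changed sign for *Cldn7* with counts summed per donor (0.022) and duplicate 1 alone (0.037), for *Cldn15* with duplicate 1 alone (-0.0081), thinned counts (-0.0022) and without the PAC duplicate 1 cultures (-0.0055), and for *Tjp1* with thinned counts (-0.0033) and without those PAC cultures (-0.059). Leaving out 1 culture gave ranges across 0 in AC for *Cldn4* (-0.25 to 0.26), *Cldn12* (-0.061 to 0.029) and *Cldn15* (-0.13 to 0.18), and for the Braf difference for *Cldn2* (-0.15 to 0.033), *Cldn7* (-0.066 to 0.018), *Cldn15* (-0.069 to 0.085) and *Tjp1* (-0.011 to 0.075). The planned contrast with *Cldn1* was not run, since that gene was not analysed here. Depth did not limit the members, but the 2 AC cultures of 1 donor and the pair of PAC 4-HT libraries do limit what AC and PAC values can show.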
